A study of Saccharomyces cerevisiae with 13 samples.

Results

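The mitochondrial ribosomal protein genes described here are the 43 genes of budding yeast whose standard symbol is MRPL or MRPS followed by a digit, out of 6137 genes tested. They were found by matching the open reading frame names of the array to the RefSeq gene table of assembly R64. All 43 had 1 row in the table and were measured on all 13 arrays, so none was lost to the filter on missing values. The 34 MRPL genes encode proteins of the large subunit and the 9 MRPS genes proteins of the small subunit. Other proteins of the same ribosome carry different symbols (MRP, RSM, IMG and others) and are given separately below.

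The cells were W303 yeast in an SSD1-V background, grown in rich medium to early log phase, arrested before S phase (in G1) by adding alpha factor, a mating pheromone, and then released into fresh rich medium. The groups are 13 time points of 1 array each, from 0 min, still arrested, to 120 min in steps of 10 min, a span that the design gives as 2 cell cycles. Cy5 carried the cDNA of each time point, and Cy3 carried cDNA of an unsynchronised W303a culture grown overnight in the same medium. The sources used here do not give the SSD1 allele of that culture or the number of cultures sampled, and no time point was replicated.

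Mitochondria keep a small genome of their own, and a dedicated ribosome inside the organelle translates it into a handful of membrane subunits of the respiratory chain and the ATP synthase. Nearly all proteins of that ribosome are encoded in the nucleus, made in the cytosol and imported, so their mRNAs belong to the ordinary nuclear transcriptome. Part of the proteins descend from those of the bacterial ribosome, and the rest exist only in mitochondria. In budding yeast the cytosolic protein Puf3 binds many of these mRNAs and affects their stability and translation.

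Each value is the deposited log ratio of a time point to the unsynchronised culture, taken as log2 of Cy5 over Cy3. It compares a gene with itself in the reference and says nothing of how abundant one gene is beside another. The direction is likely from the dyes in the labels: FIG1, a gene switched on by pheromone, stood at 4.53 at 0 min. Neither the log base nor the normalization is given in the sources used here. If the ratio ran the other way, every difference would change its sign and every peak would shift by 30 min. Between 6178 and 6186 rows were measured per array, and array medians lay between -0.03 and 0.01. Rows scattered most on the 0 min array (SD 0.39) and least on the 100 min array (SD 0.24). The MATa-specific genes STE2 and BAR1 stood at 1.07 and 1.96 at 0 min, while among 4 alpha-specific genes MF(ALPHA)1, MF(ALPHA)2 and STE3 stood at -0.01, 0.00 and -0.29 and SAG1, the alpha-agglutinin gene, at 0.73. Because there are no replicates, every error given here is a standard error from the fit of a curve, and p-values measure the scatter of single arrays around that curve in 1 time course. Fewer cells in a stage of the cycle and less mRNA per cell cannot be told apart in such bulk samples.

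The MRPL and MRPS mRNAs moved little and moved together. Their median ran through -0.04, -0.13, 0.02, -0.04, -0.12, -0.06 and 0.14 on the arrays from 0 to 60 min. On those from 70 to 120 min it ran through 0.27, 0.11, -0.01, -0.01, 0.02 and 0.12. The group was thus highest on the 70 min array and low at 10 and 40 min. At 70 min 41 members lay above 0 and none below, and at 10 min 6 lay above and 37 below. Of the 43 genes, 34 (79.1%) had their highest value of the course at 70 min, against 6.79% of all genes tested. The lowest array was that of 10 min for 18 members, while 12 were lowest at 40 min and 9 at 30 min. The shares of all genes lowest on each array, or above and below 0 on it, were not counted. Between its lowest and highest array a member spanned 0.49 at the median, against 0.45 over all genes.

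**Figure D1:**
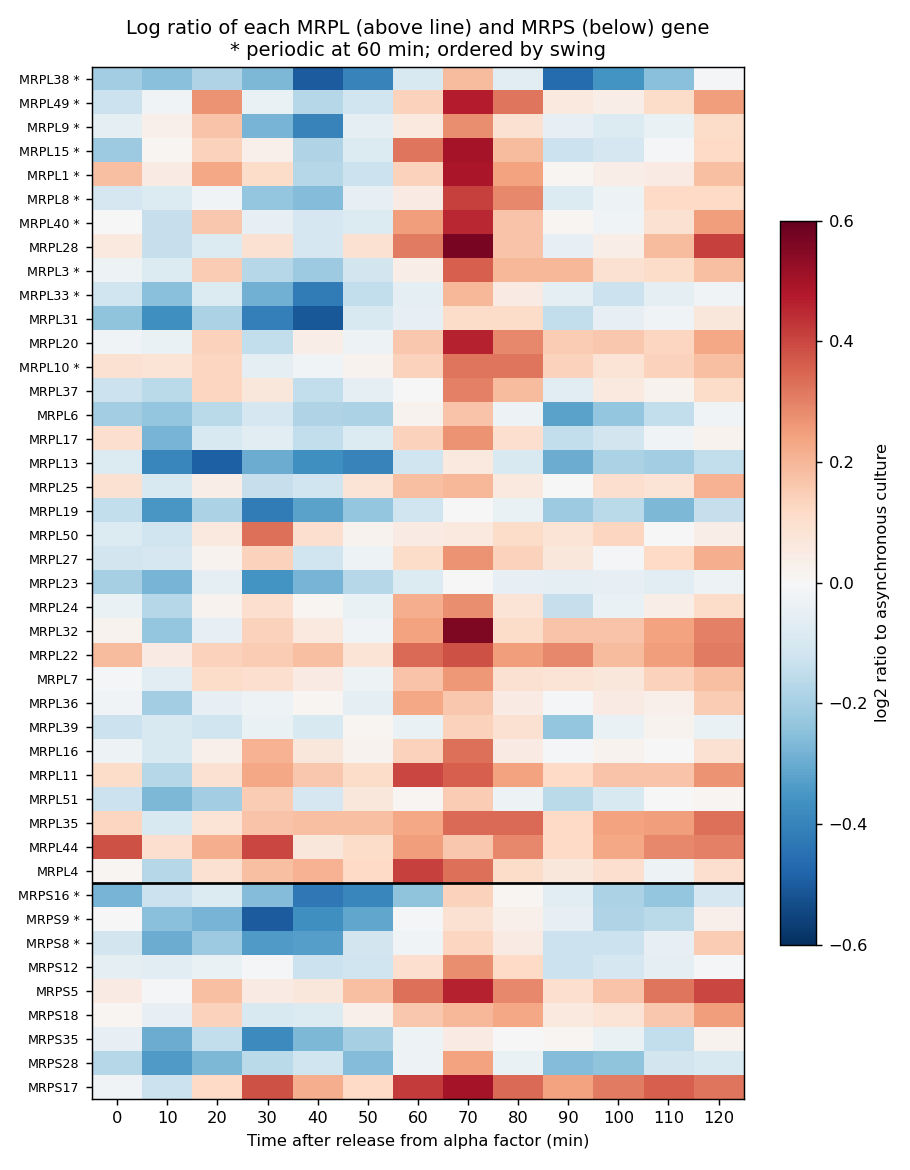
Log2 ratio to the unsynchronised culture (colour) of each of the 43 genes (rows; MRPL above the line, MRPS below, each ordered by fitted swing) on the 13 arrays (columns, min after release). Stars mark the 13 genes called periodic; the 70 min column is the darkest red, and blue gathers at 10 and at 30 to 50 min.

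Both subunits showed this course. The 34 large subunit genes had medians of -0.13, -0.11, 0.28 and 0.12 on the 10, 40, 70 and 120 min arrays. The 9 small subunit genes had -0.13, -0.13, 0.20 and 0.03 on the same arrays. The medians lay farthest apart at 60 min, with 0.14 for the large and -0.01 for the small subunit, at 100 min, with 0.03 and -0.10, and at 30 min, with -0.035 and -0.16. The difference between the subunits was not tested. Averaged over the 12 arrays from 10 to 120 min, 26 members lay above the reference and 17 below. MRPS17 had the highest mean, 0.27, followed by MRPL22 with 0.22, and MRPL13 the lowest, -0.25, next to MRPL38 with -0.22. No mean was as large as the span of a typical member over the course.

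Single genes followed the rest closely. The Pearson r over 13 arrays between a member and the median of the other 42 had a median of 0.82, and 36 members exceeded 0.7. MRPL40, a large subunit protein of the uL24 family, followed the others most closely (r = 0.97). It stood at 0.00 at 0 min, -0.14, 0.16, -0.05, -0.10 and -0.08 from 10 to 50 min, 0.25, 0.45 and 0.17 from 60 to 80 min, and 0.01, -0.02, 0.09 and 0.25 from 90 to 120 min. MRPL50, of the bL9 family, followed them least (r = 0.09). It was highest at 30 min (0.33) and stood at only 0.06 at 70 min. MRPL44, found only in mitochondrial ribosomes, was the next least like (r = 0.23), with 0.40 at 30 min and 0.16 at 70 min. Without the 70 min array MRPL50 remained least like (r = 0.12), MRPL44 had r = 0.49, and 4 other members, among them MRPL51 (r = 0.32), lay between them. The number above 0.7 was then 27. Over all 903 pairs of members the mean r was 0.60, and 19 pairs were negative. The same mean was 0.45 for 137 cytosolic ribosomal protein genes, 0.63 for 35 genes of the respiratory chain and ATP synthase, and 0.0055 over pairs of all genes. The points share their arrays and their reference, and without the 70 min array the mean over pairs of members was 0.49.

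**Figure D2:**
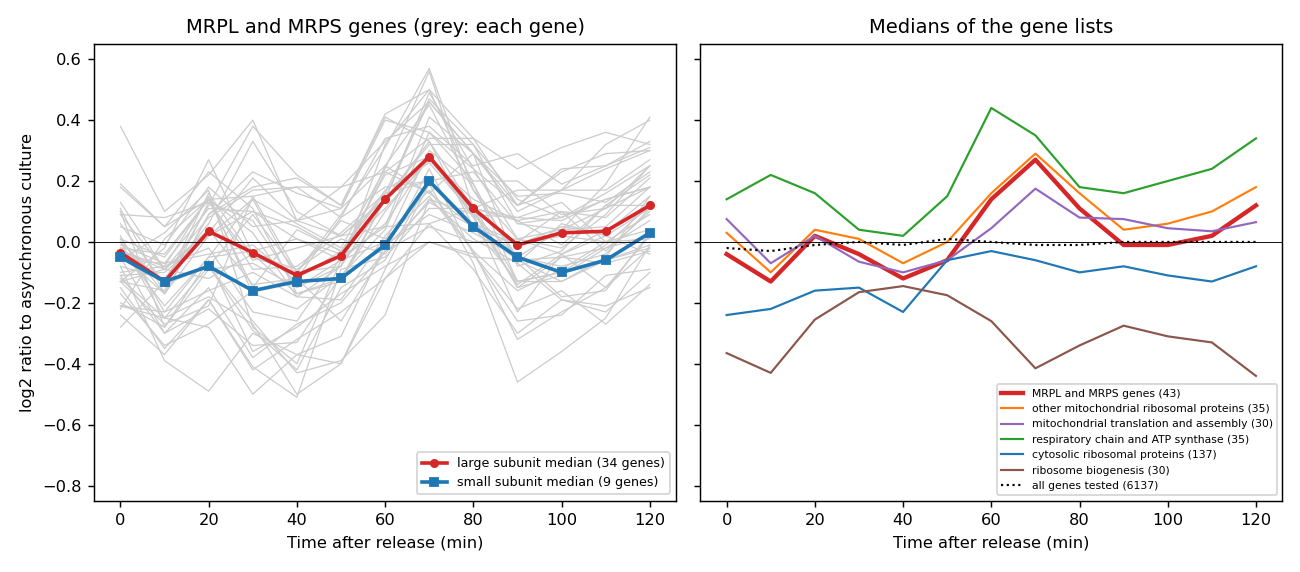
Log2 ratio to the unsynchronised culture against time after release. Left, each of the 43 genes in grey with the medians of the large subunit (red circles) and small subunit (blue squares), both highest at 70 min; right, medians of the 43 genes and of 6 other sets, where the other mitochondrial ribosomal proteins run beside the MRPL and MRPS genes and ribosome biogenesis is low at 10, 70 and 120 min and highest at 40 min.

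The first question of the design is whether the mRNAs followed the cell cycle. A cosine and sine of 60 min period were fitted beside a straight line in time, and the swing is the fitted difference between peak and trough on the log2 scale. By limma's moderated F test at an adjusted p under 0.05, 13 of the 43 members (30.2%) were periodic, while 30.1% of all genes tested were. The share among the members was thus close to that of all genes. What they had in common was the time of the fitted peak: it lay between 6.9 and 15.5 min, modulo 60, for all 13. The circular mean was 11.5 min and the circular SD 2.3 min. The fit repeats this peak in both cycles, but the 10 and 70 min arrays were unlike. The median of all 43 members was -0.13 at 10 min and 0.27 at 70 min, and 18 members were lowest at 10 min. Of all 1847 periodic genes, 32.9% peaked between 0 and 20 min. Among all 43 members, called or not, 40 had their fitted peak in that window, against 31.4% of all genes tested. Without the 70 min array the peaks of the 13 periodic members lay between 6.2 and 16.0 min. Those of MRPL4, MRPL11, MRPL16, MRPL32, MRPL35 and MRPL36, none of them called, then left the window and lay between 34.5 and 59.7 min. The members move together on the same arrays, so these peaks are not separate observations. The swings were small, 0.22 at the median over the members and 0.39 over the periodic ones, against 0.21 over all genes and 0.40 over all periodic genes.

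Of the periodic genes, 10 belong to the large subunit. MRPL38, of the uL14 family at the face of the large subunit that meets the small one, had the largest swing of the members, 0.48 ± 0.09 (adjusted p = 0.0047, limma), with a peak at 9.9 ± 1.6 min. Its values were -0.21 at 0 min, then -0.25, -0.18, -0.27, -0.50 and -0.40 up to 50 min, then -0.09, 0.19 and -0.07 at 60, 70 and 80 min, and -0.46, -0.36, -0.25 and -0.01 up to 120 min. It lay above the reference on the 70 min array alone, and its troughs at 40 and 90 min were alike in depth. MRPL49, of the bL21 family, had a swing of 0.46 ± 0.08 (adjusted p = 0.0042, limma) and a peak at 14.2 ± 1.5 min. It stood at -0.13 at 0 min, -0.02, 0.27, -0.04, -0.17 and -0.12 from 10 to 50 min, 0.14, 0.47 and 0.32 from 60 to 80 min, and 0.06, 0.04, 0.11 and 0.25 from 90 to 120 min. Like MRPL38 it had a first maximum at 20 min, lower than that at 70 min, and its first maximum lay above the reference.

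MRPL9, the uL3 family protein, whose bacterial relative reaches toward the catalytic centre, had a swing of 0.45 ± 0.08 (adjusted p = 0.0047, limma) and a peak at 10.7 min. It reached 0.17 at 20 min and 0.28 at 70 min, with -0.40 at 40 min between them and -0.08 at 100 min after them. MRPL15, found only in mitochondrial ribosomes, had a swing of 0.45 ± 0.12, the largest standard error among the called genes. MRPL1, of the uL1 family that forms the mobile stalk beside the exit site, had a swing of 0.41 ± 0.09, with 0.23 at 20 min and 0.49 at 70 min. MRPL8, of the bL17 family, had 0.39 ± 0.09, and MRPL3, a mitochondria-specific protein, 0.34 ± 0.08. MRPL40 (0.34 ± 0.10), MRPL33 (0.31 ± 0.08) and MRPL10 (0.26 ± 0.06), of the uL24, uL30 and uL15 families, completed the large subunit set. MRPL40 was the called gene nearest the threshold (adjusted p = 0.043), and MRPS18 the nearest on the other side (adjusted p = 0.060, limma).

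The 3 periodic small subunit genes spanned the whole range of peak times. MRPS16, of the bS16 family, had the smallest p of all members: its swing was 0.42 ± 0.06 (adjusted p = 0.0014, limma) and its peak came last, at 15.5 ± 1.3 min. It stood at -0.28 at 0 min, -0.13, -0.08, -0.26, -0.43 and -0.39 from 10 to 50 min, -0.24, 0.14 and 0.01 from 60 to 80 min, and -0.07, -0.19, -0.23 and -0.10 from 90 to 120 min. Only the 70 and 80 min arrays lay above the reference. MRPS8, of the uS8 family, peaked first, at 6.9 ± 2.3 min, with a swing of 0.29 ± 0.07, and MRPS9, of the uS9 family, at 8.2 ± 2.5 min with 0.36 ± 0.10. The differences between these peak times were not tested.

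Larger swings did not always pass. MRPL28, MRPL31 and MRPL20, all mitochondria-specific, had fitted swings of 0.34 ± 0.11, 0.30 ± 0.09 and 0.27 ± 0.09 (adjusted p = 0.076, 0.061 and 0.081, limma). MRPS12, the uS12 family protein of the decoding site, had 0.25 ± 0.08 (adjusted p = 0.079). At the other end MRPL4, of the uL29 family near the tunnel exit, had a swing of 0.0099 ± 0.12. By the family names of the proteins, 8 of 21 members shared by ribosomes of all domains of life were periodic, 3 of 8 of bacterial type and 2 of 14 that exist only in mitochondria. These shares were not tested against each other.

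**Figure D3:**
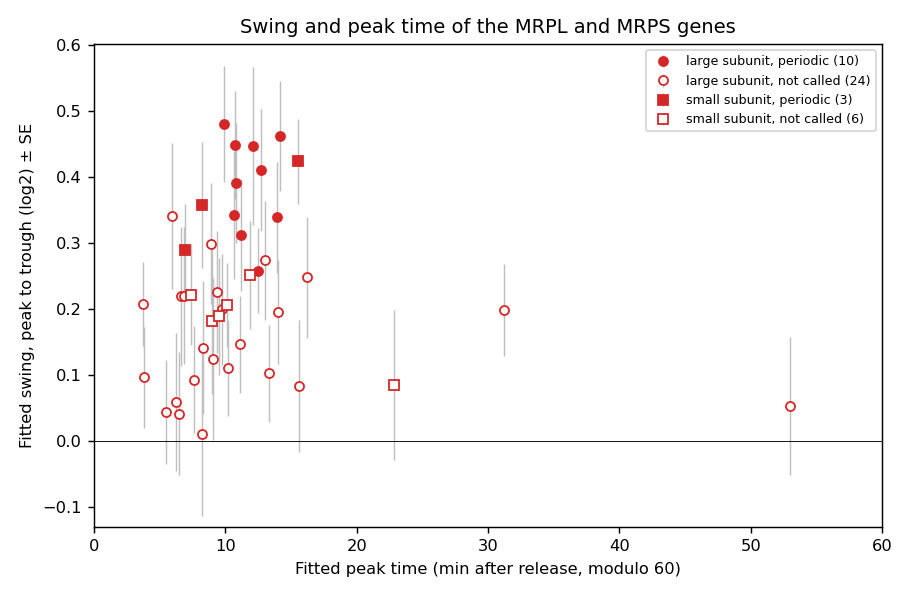
Fitted swing (log2, with its standard error) against fitted peak time (min after release, modulo 60) for the 43 genes; circles are large subunit and squares small subunit genes, filled where called periodic. The 13 filled points lie between 6.9 and 15.5 min, and MRPL50 (31.2 min) and MRPL51 (53.0 min) stand apart with open points.

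The calls leaned on the noise model and on single arrays. With a correlation between neighbouring arrays estimated from the data (0.50), 4 members were periodic, against 13.0% of all genes: MRPS16 (adjusted p = 0.017 with an estimated correlation), MRPL38 (adjusted p = 0.031), MRPL49 (adjusted p = 0.031) and MRPL9 (adjusted p = 0.047, limma). For the other 9 called genes the adjusted p with an estimated correlation ran from 0.050 for MRPL15 to 0.23 for MRPL33. Leaving out the 70 min array also left 4 periodic members (21.7% of all genes), and these were the same 4 genes. Leaving out the 40 min array gave the same 4 again (19.3% of all genes). Dropping the 80 min array gave 8 (24.2% of all genes), and dropping the 10 min array 21 (26.1% of all genes). MRPS16, MRPL38 and MRPL9 passed in all 23 alternatives run, and 21 members passed neither in the main test nor in any of them.

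The median on the 70 min array was the highest, so arrays 60 min apart were set side by side. At 70 min the members' median was 0.27, against -0.13 at 10 min, and all 43 were higher at 70 min, by 0.06 to 0.79, while 49.7% of all genes were. At 80 min the median was 0.11, against 0.02 at 20 min, with 41 members higher (46.7% of all genes). At 90 min it was -0.01, against -0.04 at 30 min, with 21 higher (48.1% of all genes), which is close to an even split. At 100 min 38 members exceeded their value at 40 min (47.6% of all genes), and at 110 min 37 exceeded that at 50 min (45.9% of all genes). At 120 min the median was 0.12, against 0.14 at 60 min, with 25 members higher (48.8% of all genes). The gap between arrays 60 min apart was thus widest for 70 against 10 min and smallest for 90 against 30 min and 120 against 60 min. MRPL32, a bL32 family protein that is cut by a mitochondrial protease before it joins the ribosome, had the widest gap, with 0.56 at 70 min and -0.23 at 10 min. In the first cycle the highest of the arrays from 10 to 50 min was that at 20 min for 19 members and at 30 min for 14. In the second, the highest from 70 to 110 min was that at 70 min for 40 members. The highest array within each window was not counted over all genes. The early G1 genes SIC1, the inhibitor of S phase cyclin kinase, and EGT2, of cell separation, stood at 0.69 and 0.55 at 70 min, against -0.64 and -2.69 at 10 min. Other cycle markers differed. CLN2, a G1 cyclin, and RNR1, of ribonucleotide reductase, were lower at 70 min (0.40 and 0.75) than at 10 min (0.65 and 1.34). The histone genes HTA1 and HTB1 stood at -1.75 and -1.11 at 70 min, against -1.88 and -1.37. The mitotic genes CLB2 and CDC5 stood at -0.44 and -0.28, against -1.14 and -1.29. Any part of cell cycle stage in the members' difference was not tested.

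The second question is whether the level drifted over the course once the cycle was taken out. The fitted slope was positive for all 43 members. The median change over 120 min was 0.25, with 0.02 for MRPL44 as the smallest and 0.50 for MRPL31 as the largest. Over all genes 50.5% of slopes were positive and the median change was 0.0022. The members move together in 1 time course (mean pairwise r 0.60), so their equal signs are not separate observations. By limma's moderated t statistic at an adjusted p under 0.05, 7 of 43 members rose (16.3%), against 1.66% of all genes, and 0 fell, against 1.17%. No member had a negative slope, so none fell at an unadjusted p under 0.05 either, while 27 had an unadjusted p under 0.05 for a rise. The share of all genes at an unadjusted p under 0.05 was not counted, here or in the settings below. Such counts therefore stand without a background. The 7 were 3 of the 34 large subunit genes and 4 of the 9 small subunit genes.

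MRPL31, a mitochondria-specific protein, had the largest change, 0.50 ± 0.10, or 1.42-fold (adjusted p = 0.028, limma). Its values were -0.24 at 0 min, -0.37, -0.19, -0.41, -0.51 and -0.09 from 10 to 50 min, -0.05, 0.11 and 0.11 from 60 to 80 min, and -0.15, -0.05, -0.02 and 0.07 from 90 to 120 min. The arrays up to 40 min all lay below those from 50 min on. MRPL49 changed by 0.41 ± 0.09 (adjusted p = 0.033) and MRPL3 by 0.40 ± 0.09 (adjusted p = 0.037, limma). Among the small subunit genes MRPS8 changed by 0.38 ± 0.08 (adjusted p = 0.031) and MRPS5, whose bacterial relative lies near the path of the mRNA, by 0.35 ± 0.09 (adjusted p = 0.0498, limma). MRPS5 stood at 0.05 at 0 min, between -0.01 and 0.18 from 10 to 50 min, at 0.33, 0.46 and 0.29 from 60 to 80 min, and at 0.10, 0.17, 0.32 and 0.40 from 90 to 120 min. MRPS18, of the uS11 family, changed by 0.29 ± 0.07 (adjusted p = 0.0479) and MRPS16 by 0.28 ± 0.07 (adjusted p = 0.0481, limma). MRPL3, MRPL49, MRPS8 and MRPS16 were also periodic. Among genes that did not pass, MRPL32 had a fitted change of 0.41 ± 0.14 (adjusted p = 0.115) and MRPL8 of 0.40 ± 0.10 (adjusted p = 0.0515, limma).

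**Figure D4:**
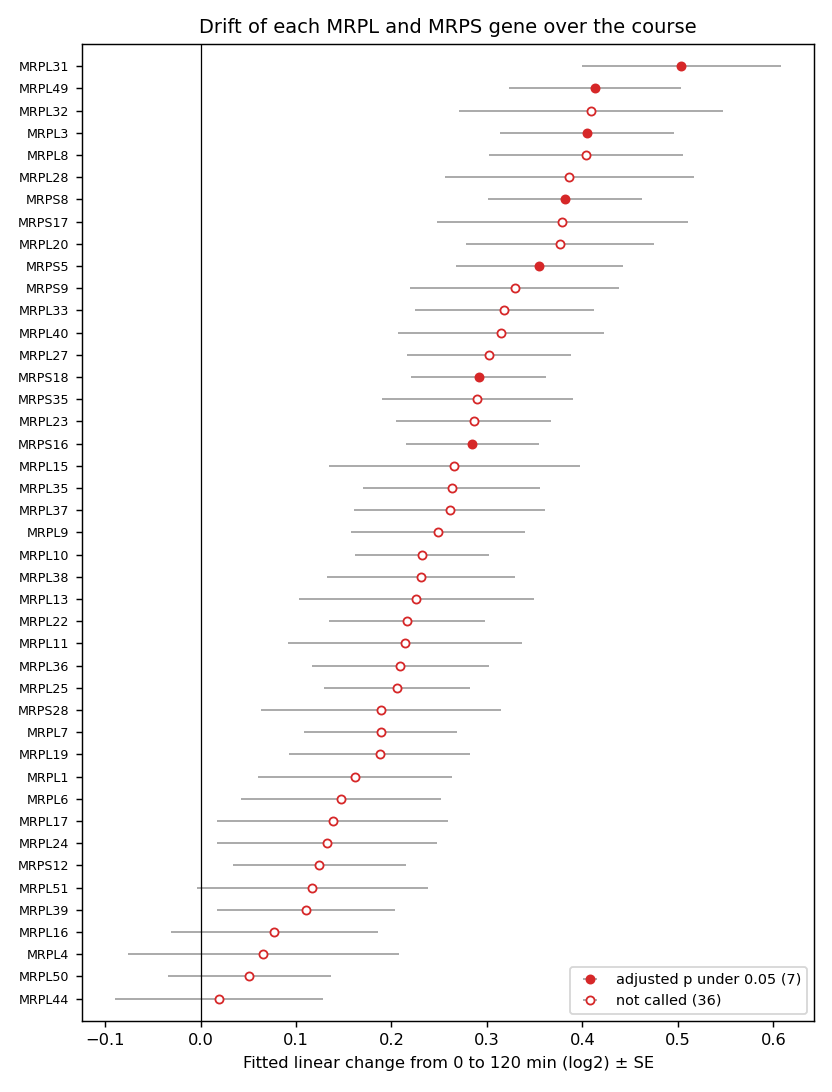
Fitted linear change from 0 to 120 min (log2, with its standard error) of the 43 genes, ordered by size. All points lie right of 0; the 7 filled ones passed the test, from MRPS16 at 0.28 to MRPL31 at 0.50.

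No single gene's drift survived every setting. With the estimated correlation 0 members rose by limma (smallest adjusted p = 0.80), with 4 at an unadjusted p under 0.05, and 0 of 6121 genes in all rose. The sign was steadier than the calls, though the correlated members do not count as replicates. With the estimated correlation 42 slopes stayed positive. Without the 70 min array 43 did, against 3110 of 6137 genes tested, and the median change was 0.22. In that setting 0 members rose (24 at an unadjusted p under 0.05), against 0.635% of all genes. The count was also 0 without the 40, 80 or 100 min array (26, 25 and 25 at an unadjusted p under 0.05), where 0.668%, 0.619% and 0.798% of all genes rose. It was 1 to 4 without the 10, 20, 30, 50, 90, 110 or 120 min array, where 0.668% to 1.42% of all genes rose. A step between the cycles in place of the line, without the 0 min array, gave 41 positive members, against 2949 of 6137 genes. The members' median difference was 0.13, second cycle minus first. In that fit 6 members passed, against 2.75% of all genes. Centring each array on its median kept 43 slopes positive with a median of 0.23.

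The third comparison sets the arrested cells of 0 min beside the 60 and 120 min arrays, which hold the same position of the fitted 60 min wave. The cell cycle genes were not all alike on these arrays. CLB2 stood at -1.24 at 0 min, against 0.40 and 0.17, and SIC1 at -0.59, against 0.76 and 0.32. HTA1 stood at -1.94, between -2.31 and -1.22. Pheromone and cycle stage thus cannot be told apart in this comparison. With 1 array at 0 min there is no test, and a difference was counted from 0.5 on the log2 scale. No member reached that size: 0 were lower by 0.5 or more, against 2.9% of all genes, and 0 higher, against 3.89%. The differences, 0 min minus the mean of 60 and 120 min, ran from -0.44 for MRPL15 to 0.105 for MRPL44, with a median of -0.15, and 39 of 43 were below 0, against 52.2% of all genes. MRPL15 stood at -0.22 at 0 min, against 0.32 at 60 min and 0.12 at 120 min. MRPS17 had -0.02 at 0 min, against 0.42 and 0.32, and MRPL49 had -0.13, against 0.14 and 0.25. MRPS5 and MRPL28 differed by -0.315 and -0.30. The 4 members above 0 were MRPL44, MRPL13 (0.055), MRPL17 and MRPL1 (0.02 each), and the next, MRPS9, stood at -0.01. The pheromone-induced genes FUS1 and PRM1 differed by 3.10 and 3.26 in the same comparison.

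This direction depended on what 0 min was set against. Against the mean of the 12 later arrays 34 members were lower (52.7% of all genes), with a median of -0.08. Against the value at 0 min of the curve fitted to the later arrays, which also carries the drift back to the start, 16 were lower and 27 higher, with a median of 0.04. Of all genes 52.1% were lower than that curve. The lower values at 0 min and the upward slope share the same late arrays and are not separate results.

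Other proteins of the same ribosome, listed by their own symbols, ran a similar course. Of 35 measured, 7 were periodic (20.0%, against 30.1% of all genes) and 6 rose (17.1%, against 1.66%). The median change over the course was 0.23, and 33 slopes were positive (94.3%, against 50.5% of all genes). Their median stood at 0.29 at 70 min, against -0.10 at 10 min. SWS2, a small subunit protein, had the smallest p for both: its swing was 0.55 ± 0.06 with a peak at 10.3 min (adjusted p = 1.6e-04), and its change over the course 0.45 ± 0.06 (adjusted p = 0.0040, limma). With an estimated correlation its swing kept an adjusted p = 0.0011, while its drift had an adjusted p = 0.47. MRP49, of the large subunit, changed by 0.45 ± 0.07 over the course (adjusted p = 0.011, but 0.56 with an estimated correlation, limma).

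The 30 measured genes of mitochondrial translation and assembly include elongation factors and aminoacyl-tRNA synthetases. Of these, 7 were periodic (23.3%, against 30.1% of all genes) and 1 rose (3.33%, against 1.66%). The riser was TUF1, the mitochondrial elongation factor that delivers aminoacyl-tRNA, with 0.35 ± 0.08 (adjusted p = 0.048, but 0.995 with an estimated correlation, limma). MTG2, a GTPase of ribosome assembly, had a change of 0.38 ± 0.11 (adjusted p = 0.069, limma). RRF1, the ribosome recycling factor, had a swing of 0.38 ± 0.08 (adjusted p = 0.0082, but 0.068 with an estimated correlation, limma). NAM2, the mitochondrial leucyl-tRNA synthetase, peaked at 16.6 min, with a swing of 0.76 ± 0.10 (adjusted p = 6.5e-04, limma). RPO41, the mitochondrial RNA polymerase, had a swing of 0.30 ± 0.06 with a peak at 3.6 min (adjusted p = 0.0088, limma). PUF3 itself had a swing of 0.09 ± 0.08 (adjusted p = 0.62) and a change over the course of -0.0033 ± 0.09, and MTF1 and SSD1 did not pass either test.

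Genes of the respiratory chain and the ATP synthase work with the products of the mitochondrial ribosome. They were periodic in 21 of 35 cases (60.0%, against 30.1% of all genes). The peaks of these 21 averaged 4.6 min (circular SD 2.5 min). The 13 periodic MRPL and MRPS genes averaged 11.5 min (circular SD 2.3 min). In the medians, the respiratory list was highest at 60 min (0.44), against 0.35 at 70 min, and the MRPL and MRPS genes at 70 min. SDH4, of succinate dehydrogenase, and ATP20, of the ATP synthase, had the smallest periodicity p-values of the list, with swings of 0.54 ± 0.07 and 0.43 ± 0.06. Of the list 34 slopes were positive and 4 genes rose (11.4%, against 1.66% of all genes). The smallest p-value was that of CYC1, cytochrome c, with 0.55 ± 0.10 (adjusted p = 0.0132, but 0.53 with an estimated correlation, limma). COX5A, of cytochrome oxidase, was next with 0.43 ± 0.10 (adjusted p = 0.0384, but 0.69 with an estimated correlation, limma).

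Of 137 cytosolic ribosomal protein genes 3 were periodic (2.19%, against 30.1% of all genes) and 8 rose (5.84%, against 1.66%). A positive slope was found for 128 (93.4%, against 50.5% of all genes), and the median change was 0.16. RPL27B had a swing of 0.25 ± 0.07 and RPL31A of 0.19 ± 0.05, and RPL40B and RPS25A changed over the course by 0.33 ± 0.07 and 0.36 ± 0.08. Among 30 ribosome biogenesis genes the 10 periodic ones (33.3%, against 30.1% of all genes) had a mean peak at 39.1 min. DBP8 and ERB1 had the smallest p-values, with swings of 0.49 ± 0.07 and 0.38 ± 0.06. All 30 slopes were negative, with a median change of -0.17, but the 2 smallest p-values, of NUG1 (-0.33 ± 0.08, adjusted p = 0.0518) and NSR1 (-0.30 ± 0.10, adjusted p = 0.102, limma), did not pass. Their median was low at 10 min (-0.43), 70 min (-0.415) and 120 min (-0.44) and highest at 40 min (-0.145). The MRPL and MRPS median was highest at 70 min but low at both 10 and 40 min, so the 2 courses were not mirror images. With the estimated correlation 13% of all genes were periodic and none rose. The periodic counts were then 1 of 35 for the other mitochondrial ribosomal proteins, 2 of 30 for translation and assembly and 8 of 35 for the respiratory list. They were 0 of 137 for cytosolic ribosomal proteins and 5 of 30 for biogenesis. No list was tested against another, and all share the same arrays and reference.

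Among 6078 other genes ranked by Pearson r with the median of the 43 members over 13 arrays, the 10 most like were RSM26, YNL046W, PET123, COX10, TIM9, CBP3, YOR263C, AIM36, PST1 and AIM44, with r from 0.94 to 0.90. RSM26 and PET123 encode other proteins of the small mitochondrial subunit. COX10 acts in heme A synthesis for cytochrome oxidase, TIM9 is a chaperone of the space between the mitochondrial membranes, and CBP3 serves cytochrome b synthesis at the mitochondrial ribosome. PST1, a cell wall protein, and AIM44, a protein of the bud neck, are also among them, and AIM44 stood at 1.12 at 70 min, against -1.61 at 10 min. The 50 most like genes, out of the 6078 ranked, held 9 of the 35 other mitochondrial ribosomal proteins. They held 2 of 30 genes of mitochondrial translation and assembly and 2 of 35 of the respiratory list. Of the cytosolic ribosomal proteins they held 2 of 137, and of ribosome biogenesis 0 of 30.

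The members are spread over 12 chromosomes, with at most 7 on one. In 21 divergent pairs of a member and its neighbour the median r was 0.01, against 0.26 over all 1364 divergent pairs of the genome. It was 0.18 in 36 tandem pairs, against 0.17 over all, and 0.24 in 23 convergent pairs, against 0.28 over all. The highest values were those of single pairs: MRPS8 and the divergent AIM36, a mitochondrial protein, had r = 0.92, and MRPL40 and the convergent COX10 r = 0.91. The neighbours named here were chosen after their values were seen. MRPL19 and MRPL51 overlap another annotated gene, and no information on probe or strand was used, so their signal may include it.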

How the data were processed

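Per the labels' protocols, total RNA of each time point was reverse transcribed, its cDNA coupled to Cy5 and hybridised with Cy3-coupled cDNA of an asynchronous W303a culture on 2-channel arrays. The deposited values are log ratios, taken as log2; the sources used here do not give the scanner, background correction, normalization or log base. Array means lay within 0.003 of 0, so the authors' values had been centred, and they were used as deposited.

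Of 6295 rows 108 had no value and 20 no readable name. RefSeq names (assembly R64) matched 5768 rows by locus tag and 49 by synonym; 458 kept their own name. Rows of 27 genes were averaged, and 6137 genes measured on at least 10 arrays were tested. limma 3.58.1 in R 4.3.3 fitted, for each gene, a line in time plus a 60 min wave (cosine and sine terms), with Benjamini-Hochberg adjustment over all genes and a threshold of 0.05. The alternatives changed the period, the scaling, the filter, the variance model, the noise model and the arrays used. The fits were tested on simulated data with independent noise. With correlated noise only the estimate of the correlation was tested, so false calls under such noise were not counted. Genes named are the 10 of smallest p per call, the 5 highest and 5 lowest at 0 min, the 3 largest swings that did not pass, the members most and least like the others, and the 2 of smallest p for periodicity and for drift in each other list, the 10 genes most like the members, with PUF3, RPO41, MTF1 and SSD1. Others, such as MRPS12, MRPL4 and MRPL32, were chosen after their values were seen. Members, lists and tests were chosen with earlier results of these data known. Figures used matplotlib 3.10.9. Sequences were not used here.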

Additional observations from a re-analysis of the deposited data

How the results depend on the processing

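With 13 unreplicated arrays, a call means a fitted term that is large beside the scatter of single arrays in 1 time course. The count of periodic members was 13 as reported, 4 with the estimated correlation between neighbouring arrays, 6 at a period of 55 min and 4 with no linear time term, where 30.1%, 13%, 15.5% and 26% of all genes passed. Leaving out single arrays gave 4 to 21. Other scalings, periods of 63 or 65 min, the filter and the variance model gave 10 to 18. The count of rising members was 7 as reported, 0 with the estimated correlation, 0 at a period of 55 min, 12 at 63 min, 13 at 65 min, 4 with median centring, 4 with robust empirical Bayes and 0 with no moderation of the variance (27 at an unadjusted p under 0.05). Of all genes 1.66%, 0%, 0.489%, 2.62%, 2.84%, 1.35%, 1.39% and 0.521% rose in these settings, in the same order. Leaving out single arrays gave 0 to 5. The count was 0 without the 40, 70, 80 or 100 min array. No alternative gave a falling member, apart from a turned sign of the ratio, which turns every slope. The count of members lower at 0 min by 0.5 or more was 0, and 1 against the 60 min array alone. Slopes kept their sign for 41 to 43 members in every alternative with a slope or step, apart from that turned sign. With the sign of the ratio turned, 13 members remain periodic with their peaks moved by 30 min. No paired analysis was possible because each time point has 1 array and no replicate number pairs arrays. The cause of these changes was not tested.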
